A study of Bos taurus with 170 samples.

Results

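Cell adhesion genes were examined in blastomeres of bovine embryos: the protocadherins PCDH8 and PCDH10, E-cadherin (CDH1), beta-catenin (CTNNB1) and alpha-catenin (CTNNA1). All 5 were listed among the 10772 genes of the table of unique molecular identifiers (UMI), in which each captured transcript counts once. They were chosen with earlier results of these data known. The day pattern and the uneven detection of PCDH8 and PCDH10 were part of that choice, so the values of both protocadherins are a description without a test. The difference between the days for CDH1, CTNNB1 and CTNNA1 was not part of it and was tested.

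Cadherins are calcium-dependent adhesion molecules that bind the same molecule on the neighbouring cell. E-cadherin holds the blastomeres of mammalian embryos together at compaction. Its intracellular end binds beta-catenin, which binds alpha-catenin, which in turn links the complex to actin filaments. Beta-catenin not bound to cadherins is degraded or, under Wnt signalling, enters the nucleus and acts on transcription. Protocadherins belong to the same superfamily but do not bind beta-catenin. PCDH10 can recruit the actin-regulating WAVE complex, and PCDH8 (also called paraxial protocadherin or arcadlin) is known from cell movements in the early embryo and from synapses.

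The embryos were produced by in vitro maturation and fertilisation of oocytes, received no treatment and had been selected for the timing of their first cleavages. Day 2 comprised 6 embryos of the 8-cell stage (43 cells kept), and Day 3 comprised 8 embryos of the 16-cell stage (118 cells kept). The embryo was the unit of replication, since sibling cells share their embryo. After removal of the zona pellucida with pronase, the blastomeres were separated by pipetting in PBS free of calcium and magnesium. The values thus describe RNA of cells taken out of contact. Cells with under 2000 UMI were left out (4 on Day 2 and 5 on Day 3), and the kept cells held 2634 to 357287 UMI on Day 2 and 2078 to 108376 on Day 3. Levels are UMI per 1000000 gene UMI (CPM), here summed over the cells of an embryo. The 3 plates were not balanced: plate 1 held only Day 3 embryos (E1 to E4), whereas plates 2 and 3 held both days. Within Day 3, plate also ran with the collection time given in the paper. The embryos of plate 1 were collected first, those of plate 3 next and those of plate 2 last. Plate and collection time thus cannot be told apart among the Day 3 embryos. Of 93 cell barcodes, 77 occurred in 2 cells. The labels name no library pools, and a first barcode set (all Day 2 embryos with Day 3-E1 and Day 3-E2) was put together here from this reuse. The barcodes did not place Day 3-E3, which was left out of it, so the set has only 2 Day 3 embryos. The labelled cell type was checked against its markers. The 10 oocyte and cleavage embryo markers in the table (among them the egg coat genes ZP2, ZP3 and ZP4) all had UMI on both days and summed to 9782 to 11611 CPM on Day 2 and to 3192 to 12398 CPM on Day 3. The 12 cumulus and granulosa cell markers in the table summed to 508.7 to 616.1 CPM on Day 2 and 190.5 to 553.6 CPM on Day 3, most of it STAR and HAS2, with DCN at 0 on Day 2. The part of remaining follicle cells in the adhesion values was not tested.

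PCDH8 was at the level of single molecules in every Day 2 embryo and reached from 3 to 247 UMI in the Day 3 embryos. On Day 2 the embryos E1 to E6 held 5, 4, 1, 5, 5 and 3 PCDH8 UMI, which corresponded to 10.69, 4.35, 1.32, 7.61, 6.4 and 6.84 CPM. On Day 3 the embryos E1 to E8 held 3, 41, 9, 94, 31, 58, 106 and 247 UMI, which corresponded to 5.00, 139.0, 23.6, 280.9, 80.6, 127.1, 342.7 and 635.9 CPM. The 6 Day 2 embryos averaged 6.2 ± 3.156 CPM (SD) and the 8 Day 3 embryos 204.3 ± 210.2 CPM (SD). Day 3-E1 fell between the Day 2 values, and the other 7 Day 3 embryos were higher than any of them.

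Each embryo's level carries a counting error, given here as an exact 95% Poisson interval that covers counting error only. The intervals leave out the spread between sibling cells, which was wider than counting error in several embryos, so they do not settle the order of neighbouring embryos. Day 3-E1 reached at most 14.61 CPM and Day 3-E3 lay between 10.78 and 44.7 CPM, so these neighbours overlapped. Day 3-E5 (54.7 to 114.4 CPM), Day 3-E6 (96.5 to 164.3 CPM) and Day 3-E2 (99.8 to 188.6 CPM) overlapped in a chain and lay above Day 3-E3. Day 3-E4 (227.0 to 343.8 CPM) and Day 3-E7 (280.6 to 414.5 CPM) overlapped with each other and lay above Day 3-E2, and Day 3-E8 (559.0 to 720.3 CPM) lay above all others by these intervals. Set against the spike-in RNA, of which each well received an equal amount, PCDH8 reached 0.0946 to 0.692 UMI per 1000 spike-in UMI in the Day 2 embryos. The corresponding value was 0.352 in Day 3-E1, 1.6 in Day 3-E3 and 24.8 in Day 3-E8, so the extremes kept their places on this scale. Within plates, the 2 Day 3 embryos of plate 3 averaged 103.8 CPM against 5.99 CPM for the 4 Day 2 embryos of that plate. On plate 2 the corresponding means were 489.3 CPM (2 embryos) and 6.62 CPM (2 embryos). Plate 1 held no Day 2 embryo, and its 4 Day 3 embryos ranged from 5.00 to 280.9 CPM. In the first barcode set the Day 3 side consisted of Day 3-E1 and Day 3-E2, at 5.00 and 139.0 CPM.

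**Figure D1:**
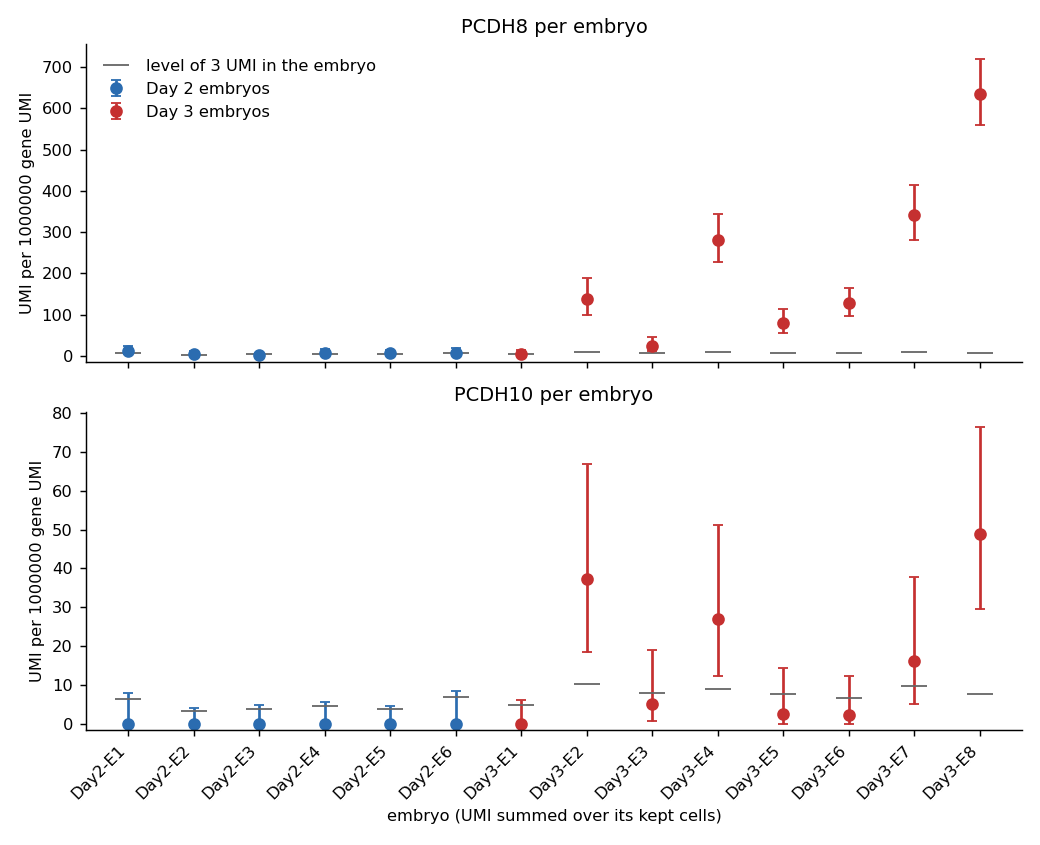
PCDH8 (upper panel) and PCDH10 (lower panel) levels in UMI per 1000000 gene UMI for each of the 14 embryos; bars are exact 95% Poisson intervals of the embryo's UMI count and grey ticks mark the level of 3 UMI. All Day 2 embryos and Day 3-E1 lie near 0 for PCDH8 and at 0 for PCDH10, and on this scale Day 3-E8 is highest for both, at 635.9 and 48.9 CPM.

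In the cells of the Day 2 embryos PCDH8 was found in 19 of 43 cells (44.2%, Wilson 95% interval 30.4 to 58.9%), at 3 UMI or fewer in each. These cells were deep: a Day 2 cell of median depth (75114 UMI) registers 1 molecule at 13.31 CPM, whereas a Day 3 cell of median depth has this step at 41.6 CPM. Compared at 10000 UMI per cell (which left out 6 shallower Day 2 and 15 shallower Day 3 cells), the expected share of cells with a PCDH8 UMI averaged 5.45 ± 2.49% over the 6 Day 2 embryos and 52.7 ± 33.5% over the 8 Day 3 embryos (SD), against unthinned shares of 44.3 ± 15.25% and 65.1 ± 33.0%. Equal depth thus separated the days further than the unthinned shares did. On Day 3 all 15 cells of Day 3-E7 and all 15 cells of Day 3-E8 held PCDH8. The share was 14 of 17 cells in Day 3-E5, 10 of 13 in Day 3-E4, and 9 of 14 in both Day 3-E2 and Day 3-E6. It was 3 of 16 cells in Day 3-E3 and 2 of 14 in Day 3-E1.

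Sibling cells of several Day 3 embryos differed widely in PCDH8 at similar depth. In Day 3-E2 a cell of 14897 UMI held 22 of the embryo's 41 PCDH8 molecules (1477 CPM in that cell), and the second highest cell held 5. Without that cell the level of Day 3-E2 was 67.9 CPM in place of 139.0 CPM. In Day 3-E7 a cell of 11510 UMI held 33 of 106 molecules (2867 CPM in that cell), although it contributed only 3.72% of the embryo's UMI. Day 3-E6 had cells with 17, 14 and 11 molecules next to 5 cells with none. The deepest of these cells without PCDH8 had 35750 UMI and would have held 4.54 molecules at the mean level of its embryo. In Day 3-E3 all 9 molecules lay in 3 cells, with 4, 4 and 1 each. Day 3-E8 differed in that 9 of 15 cells held 10 or more molecules, with a lowest value of 2.

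Counted against the own depth of each cell, 5 of the 8 Day 3 embryos had fewer PCDH8-positive cells than a uniform level would give. Uniform expression in the embryo would give 12.5 positive cells in Day 3-E2 (9 observed), 13.17 in Day 3-E6 (9 observed) and 6.52 in Day 3-E3 (3 observed). In Day 3-E5 the expected number was 12.4 and 14 cells were positive. The spread was also expressed as the squared coefficient of variation (CV) left after counting error was removed, for embryos with 20 or more UMI of the gene. It was 5.18 in Day 3-E2, 2.72 in Day 3-E7 and 2.41 in Day 3-E6, but 0.410 in Day 3-E8, 0.231 in Day 3-E4 and -0.195 in Day 3-E5. A value near or under 0 means that the cells differed no more than counting alone allows. Among the genes with 20 or more UMI in the same embryo, PCDH8 had rank 1 of 3056 in Day 3-E2, rank 9 of 3777 in Day 3-E6 and rank 11 of 2984 in Day 3-E7. It had rank 3474 of 3557 in Day 3-E5, so the same gene was among the most and among the least variable, depending on the embryo. Day 3-E2 reached the limit of 20 UMI only with its cell of 22 PCDH8 UMI. These ranks are a description, since the uneven detection of PCDH8 was part of its choice.

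**Figure D2:**
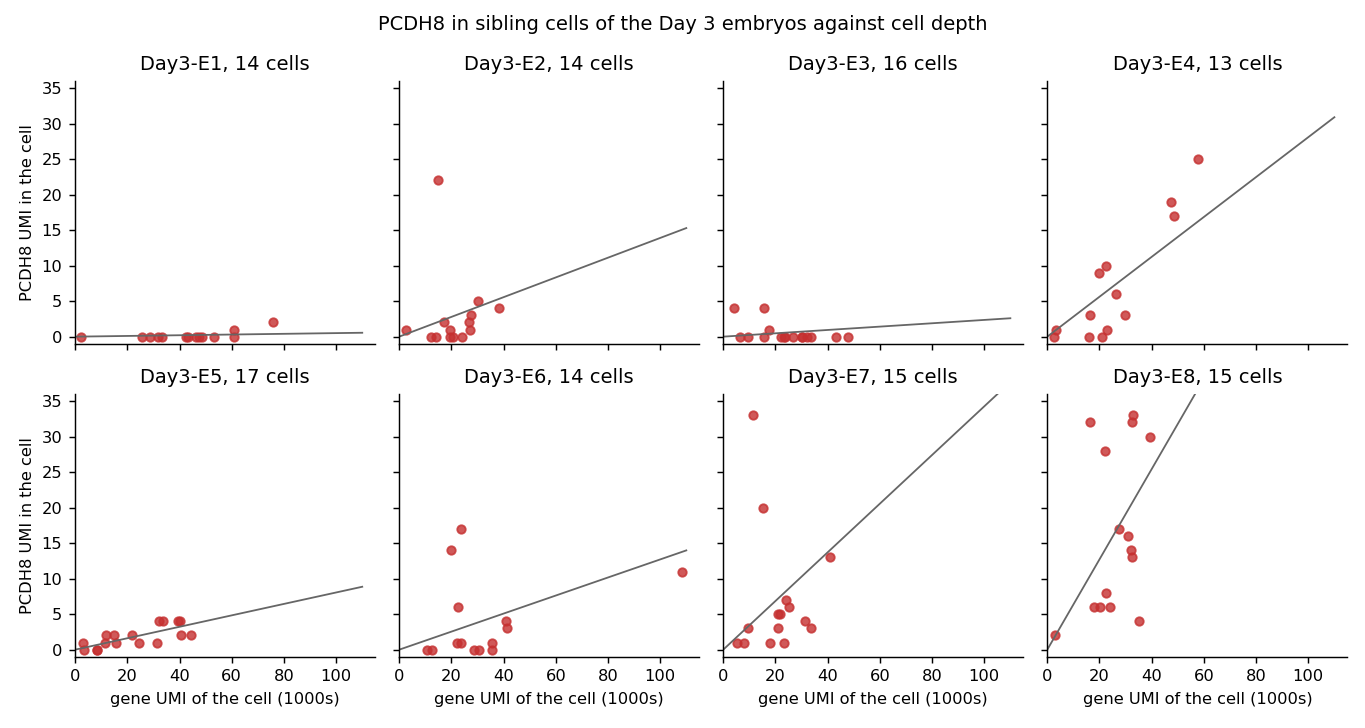
PCDH8 UMI of each cell (vertical axis) against the gene UMI of that cell in units of 1000 (horizontal axis), with 1 panel for each Day 3 embryo; the line gives the count expected at the mean level of the embryo. Cells of Day 3-E5 lie along the line, whereas in Day 3-E2 and Day 3-E7 cells with 22 and 33 UMI lie far above it at moderate depth.

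PCDH10, which is expressed predominantly in the inner cell mass of later bovine embryos, was carried mainly by 4 Day 3 embryos. No Day 2 embryo and no cell of Day 3-E1 held a PCDH10 UMI. With 3 UMI taken as the limit that a count of 0 allows, the Day 2 embryos could hold up to 3.26 to 6.84 CPM unseen and Day 3-E1 up to 5.00 CPM. Day 3-E2 to Day 3-E8 held 11, 2, 9, 1, 1, 5 and 19 UMI, or 37.3, 5.24, 26.9, 2.6, 2.19, 16.16 and 48.9 CPM. Of these, Day 3-E3, Day 3-E5 and Day 3-E6 stayed below the level of 3 UMI, so they cannot be told apart from the embryos at 0. The mean over the 8 Day 3 embryos was 17.4 ± 18.4 CPM (SD). The intervals of the carriers Day 3-E2 (18.6 to 66.7 CPM), Day 3-E4 (12.3 to 51.1 CPM), Day 3-E7 (5.25 to 37.7 CPM) and Day 3-E8 (29.4 to 76.4 CPM) overlapped from each to the next. Their order depended on the scale: per 1000 spike-in UMI Day 3-E2 was highest, at 2.51 against 1.91 in Day 3-E8. In the normalised table of the authors Day 3-E7 was highest, at 64.1 against 48.5 in Day 3-E8, but those values do not follow the counts. For CTNNA1 in Day 2-E1 that table gave 92.0, against 500.1 CPM from the counts and 421.1 CPM in the lowest cell. Its order of the carriers is therefore not used. Plate, and with it collection time, did not separate carriers from the rest in full. Day 3-E2 and Day 3-E4 came from plate 1 and Day 3-E7 and Day 3-E8 from plate 2, while both Day 3 embryos of plate 3 were below the level of 3 UMI. With 48 UMI in all, PCDH10 did not pass the filter on low counts.

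At the level of cells, PCDH10 was found in 8 of 14 cells of Day 3-E2, 4 of 13 cells of Day 3-E4, 4 of 15 cells of Day 3-E7 and 10 of 15 cells of Day 3-E8. The highest count in a cell was 5 UMI, in Day 3-E8. A uniform level would give 7.29 positive cells in Day 3-E2, 5.91 in Day 3-E4, 4.12 in Day 3-E7 and 10.28 in Day 3-E8 at each cell's depth, so the observed number was below it by more than 1 cell in Day 3-E4 alone. In contrast to PCDH8, no embryo held 20 UMI, so its spread between sibling cells could not be measured. Of the 30 PCDH10-positive cells, 23 also held PCDH8, where each embryo's own shares of positive cells would give 24.06, and 34 Day 3 cells held neither. The 7 cells with PCDH10 alone came from Day 3-E2 (4 cells), Day 3-E3 (2 cells) and Day 3-E4 (1 cell). The embryo order of the pair differed in places. In CPM, Day 3-E2 was second highest in PCDH10 but below 3 other embryos in PCDH8, whereas Day 3-E6 held 58 PCDH8 molecules and 1 PCDH10 molecule.

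Transcripts of the cadherin-catenin complex were already present on Day 2 in every embryo and did not rise by Day 3. Of CDH1, CTNNB1 and CTNNA1, only CTNNA1 passed the test between the days, and it was lower on Day 3 (1 of 3 genes called, against 32.5% of all 5274 genes tested). Of the 1712 genes called, 1117 were higher and 595 lower on Day 3. That split depended on scaling: with total UMI alone it was 890 higher and 981 lower, and with the spike-in totals as library size it was 467 higher and 2081 lower. Trimmed mean of M values (TMM) scaling put the median gene at a log2 fold change of -0.04, total UMI put it at -0.27 and spike-ins at -0.78. Each well held a single cell, so the spike-in scale is a scale per cell. Embryos of the 16-cell stage on Day 3 divide their RNA over more cells than those of the 8-cell stage on Day 2. A fall on the spike-in scale thus need not mean fewer transcripts in the whole embryo.

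CTNNA1, which links the cadherin complex to actin, ranged from 385.8 to 500.1 CPM on Day 2 (median 452.0) and from 90.1 to 371.6 CPM on Day 3 (median 230.8). The days did not overlap, a pattern that 5.38% of the tested genes shared in this direction. The mean fell from 446.6 ± 44.2 CPM (SD, n = 6) to 238.6 ± 107.6 CPM (SD, n = 8). The TMM-scaled log2 fold change of -0.70 had a standard error of 0.22 and an adjusted p of 0.0225 (edgeR quasi-likelihood test), against a median of -0.04 over all genes. The Day 3 embryos were spread over a wide range. Day 3-E8 and Day 3-E4 were lowest, at 90.1 and 107.6 CPM, and their counting intervals overlapped. Day 3-E7, Day 3-E6 and Day 3-E2 followed at 197.2, 203.8 and 257.7 CPM, and Day 3-E3, Day 3-E5 and Day 3-E1 were highest at 332.5, 348.3 and 371.6 CPM. Per 1000 spike-in UMI, CTNNA1 gave 26.4 to 32.6 UMI in the Day 2 embryos, 26.2 in Day 3-E1 and 3.52 in both Day 3-E4 and Day 3-E8. With spike-in totals as library size, a scale per cell, the log2 fold change was -1.29 (adjusted p = 0.0187, edgeR). On plates 2 and 3, with plate as a covariate, the log2 fold change was -0.85 (adjusted p = 0.00902, edgeR). In the first barcode set the call was lost (log2 fold change -0.34, adjusted p = 0.2999, edgeR), with only Day 3-E1 and Day 3-E2 on the Day 3 side, at 371.6 and 257.7 CPM. It was also lost when every cell was thinned to 10000 UMI (-0.37, adjusted p = 0.316, edgeR).

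CTNNB1, the bridge between cadherin and alpha-catenin, ranged from 118.5 to 209.6 CPM on Day 2 (median 158.0) and from 54.1 to 158.4 CPM on Day 3 (median 92.7). Only Day 3-E7, at 158.4 CPM, reached into the range of the Day 2 embryos. The means were 158.1 ± 36.2 CPM (SD, n = 6) and 94.0 ± 29.5 CPM (SD, n = 8). The log2 fold change of -0.49 (standard error 0.22) did not pass the test (adjusted p = 0.0938, edgeR). It passed without Day 3-E7 (log2 fold change -0.68, adjusted p = 0.0205, edgeR) and with total UMI in place of TMM (-0.74, adjusted p = 0.0193, edgeR). It also passed with spike-in totals (-1.29, adjusted p = 0.00657, edgeR) and with every cell thinned to 10000 UMI (-0.90, adjusted p = 0.0381, edgeR). Within plate 3 the 2 Day 3 embryos were at 92.0 and 93.6 CPM against 118.5 to 185.9 CPM for the 4 Day 2 embryos, and within plate 2 they were at 54.1 and 158.4 CPM against 156.1 and 209.6 CPM. On plates 2 and 3 with plate as a covariate the log2 fold change was -0.48 (adjusted p = 0.171, edgeR).

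CDH1 was the least captured of these genes, with 217 UMI on Day 2 and 112 on Day 3. It ranged from 30.4 to 79.1 CPM on Day 2 (median 58.1) and from 14.94 to 56.6 CPM on Day 3 (median 33.9), and the days overlapped. The means were 56.0 ± 18.4 CPM (SD, n = 6) and 33.2 ± 13.63 CPM (SD, n = 8). The difference of -0.46 on the log2 scale (standard error 0.29) did not pass the test (adjusted p = 0.227, edgeR). Day 3-E1, highest on Day 3, was higher than 3 of the 6 Day 2 embryos, and the lowest embryos were Day 3-E4 and Day 3-E5 with 5 and 7 UMI. Within plate 3 the 4 Day 2 embryos averaged 56.4 CPM and the 2 Day 3 embryos 29.9 CPM, and within plate 2 the corresponding means were 55.2 and 33.9 CPM (2 embryos each). With spike-in totals as library size CDH1 passed the test (log2 fold change -1.18, adjusted p = 0.0273, edgeR), on a scale whose median gene stood at -0.78.

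**Figure D3:**
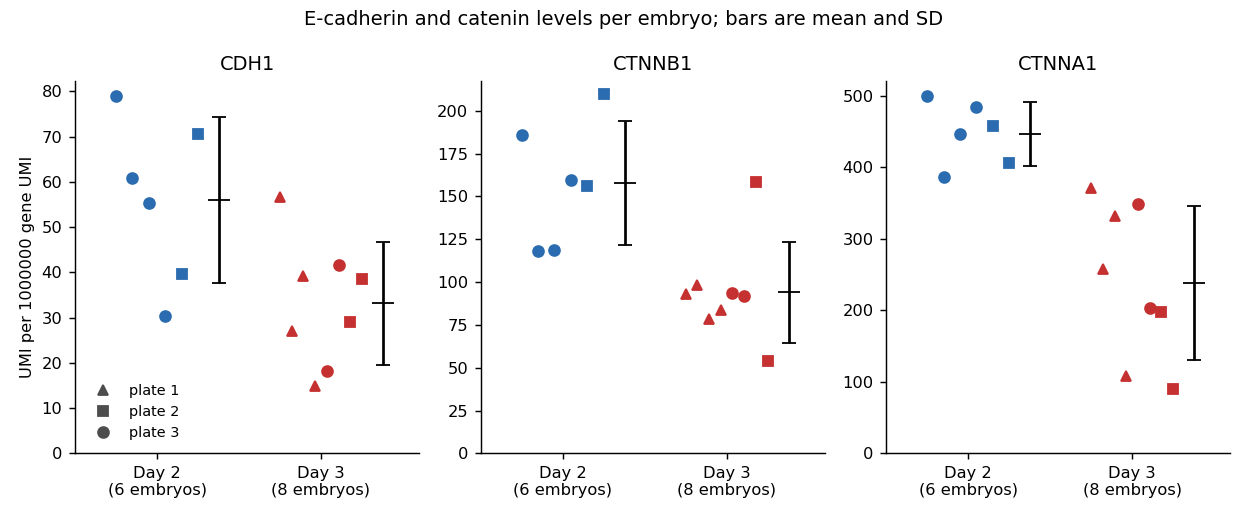
Levels of CDH1, CTNNB1 and CTNNA1 in UMI per 1000000 gene UMI, with 1 point for each embryo (6 on Day 2, 8 on Day 3), the plate as the symbol, and bars for mean and SD. The days do not overlap for CTNNA1 (385.8 to 500.1 against 90.1 to 371.6 CPM), overlap through Day 3-E7 for CTNNB1, and overlap widely for CDH1.

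Nearly all cells held catenin transcripts. All 43 Day 2 cells held CTNNA1, as did 110 of the 118 Day 3 cells, where a uniform level in each embryo would give 109.9. CTNNB1 was present in 42 cells on Day 2 and 96 on Day 3 (96.4 expected), and CDH1 in 35 on Day 2 and 57 on Day 3 (61.0 expected). The positive cells of these 3 genes were thus about as many as cell depth would give on Day 3. At 10000 UMI per cell the mean expected share for CTNNA1 was 98.4 ± 0.897% on Day 2 and 84.8 ± 15.7% on Day 3 (SD, n = 6 and 8). For CDH1 it was 37.6 ± 5.52% and 27.7 ± 9.79%. Among Day 3 cells, CDH1 occurred in 34 of the 77 cells with PCDH8 and in 23 of the 41 cells without it. Each embryo's own shares would give 33.6 cells with both genes. CDH1 was found in 18 of the 30 cells with PCDH10, where the embryos' shares would give 14.07.

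The spread of the catenins between sibling cells was small on Day 2. The squared CV of CTNNA1 beyond counting error was 0.0665 ± 0.0547 over the 6 Day 2 embryos and 0.0485 ± 0.131 over the 8 Day 3 embryos (mean ± SD). This difference was smaller than the spread between embryos (exact two-sided permutation test, p = 0.786, adjusted p = 0.786 over 3 genes). That of CTNNB1 was 0.0432 ± 0.0462 over the Day 2 and 0.217 ± 0.210 over the Day 3 embryos. It reached 0.621 in Day 3-E8, where 8 of 15 cells held CTNNB1 and 10.76 were expected. This difference did not pass the test either (exact two-sided permutation test, p = 0.0619, adjusted p = 0.186), and other genes moved with it. The median over all genes with 20 or more UMI was 0.00925 to 0.0226 in the Day 2 embryos and 0.0346 to 0.184 in the Day 3 embryos. For CDH1 only Day 3-E1 had enough molecules on Day 3. Its value was -0.100, against -0.000257 ± 0.104 (SD, n = 6) on Day 2, and with 6 embryos against 1 the exact permutation test cannot go below p = 0.143 (p = 0.286, adjusted p = 0.429).

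**Figure D4:**
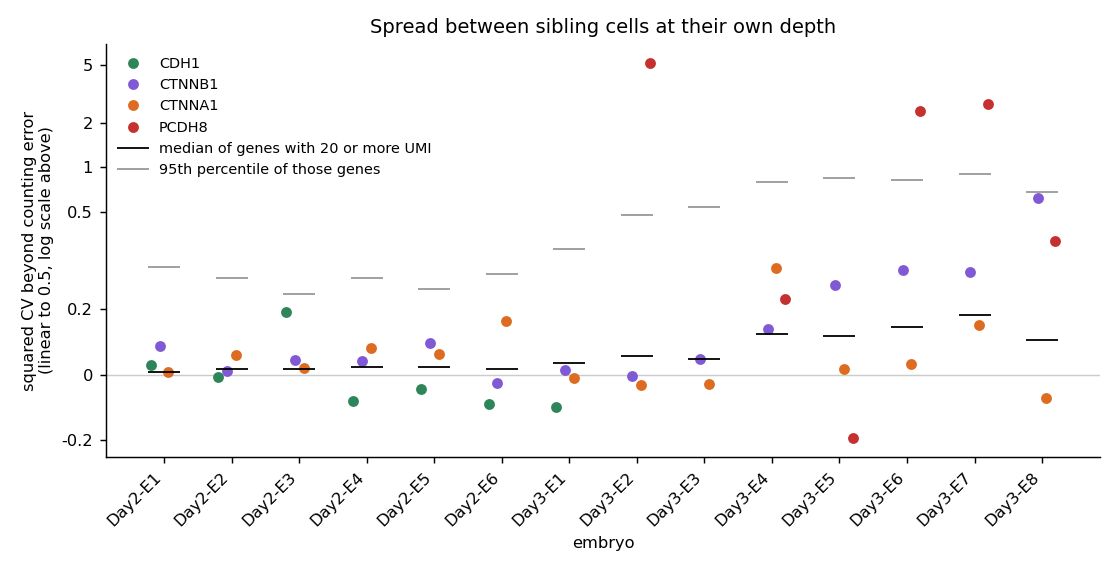
Squared CV between sibling cells beyond counting error for PCDH8, CDH1, CTNNB1 and CTNNA1 in each embryo with 20 or more UMI of the gene; black and grey ticks give the median and the 95th percentile of all such genes, and the vertical axis is linear up to 0.5 and logarithmic above. PCDH8 exceeds the grey tick in Day 3-E2, Day 3-E6 and Day 3-E7 (5.18, 2.41 and 2.72), whereas CTNNA1 stays at or below 0.328 in all embryos.

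The genes with the most similar embryo order were listed for each of the 5 genes by Spearman's rho of CPM over the 14 embryos. These values are a description: the embryos share libraries, depth and the difference between the days. For PCDH8 they were EIF1AX (translation initiation, rho 0.991), NDUFA4 (respiratory chain, 0.960) and RPL32 (ribosome, 0.960). Over the 8 Day 3 embryos alone the rho of EIF1AX was 1.00, with a level of 143.3 CPM in its lowest and 1251 CPM in its highest embryo. For PCDH10 they included the splicing factor SF3B1 and PROSC, with rho 0.932 for both and 0.976 for both over the Day 3 embryos. Only 4 embryos held PCDH10 above the level of 3 UMI, so its embryo order rests partly on single molecules. For CTNNA1 they were GMPS (guanine nucleotide synthesis, 0.978), the sorting receptor SORL1 (0.978) and the spindle gene NUSAP1 (0.974), and the rho over the Day 3 embryos was 0.976, 0.976 and 1.00. For CTNNB1 they were CFAP20 (0.916), WDR19 (0.868) and the exon junction gene CASC3 (0.864), with 0.857, 0.595 and 0.643 over the Day 3 embryos. For CDH1 they were STK33 (0.895), the cholesterol synthesis gene HMGCS1 (0.851) and MACROD2 (0.846), with 0.881, 0.667 and 0.833 over the Day 3 embryos.

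The surrounding adhesion genes moved in both directions. Of 166 genes in 8 lists around the cadherin-catenin complex, 106 were in the table and 56 passed the filter on low counts. Of these 56, 9 rose, 12 fell and 35 did not pass the test, with a median log2 fold change of -0.12 beside -0.04 over all genes, so the share called (21 of 56) stood beside 32.5% of all genes. With spike-in totals as library size 3 rose and 28 fell of 61 tested.

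Among other catenins and cadherin-bound proteins, 1 of 10 tested genes rose and 1 fell (median log2 fold change -0.35). JUP (plakoglobin, or gamma-catenin), which can take the place of beta-catenin on cadherins and is also found in desmosomes, rose. It ranged from 0 to 4.57 CPM on Day 2 and from 8.33 to 161.4 CPM on Day 3, so the days did not overlap (as for 3.98% of tested genes in this direction), and Day 3-E1 was lowest on Day 3. JUP held 8 UMI on Day 2 and 200 on Day 3, a rise of 5.26 on the log2 scale (standard error 0.75, adjusted p = 0.000139, edgeR) that was 4.18 with spike-in totals. JUP passed the filter on low counts only through the Day 3 embryos, where it was high. A rise was thus nearly fixed by the filter, and the adjusted p gives no independent support. EPB41L5, a FERM-domain protein of epithelial junctions, fell from a median of 296.1 to 164.1 CPM (log2 fold change -0.55, adjusted p = 0.0266, edgeR). The call of EPB41L5 was lost in the first barcode set (log2 fold change -0.29, adjusted p = 0.420, edgeR), where JUP was too low to be tested.

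Junction genes changed in both directions, with 2 of 6 tested genes of the nectin and tight junction list higher and 3 lower on Day 3 (median log2 fold change -0.45). F11R (junctional adhesion molecule A) ranged from 5.28 to 16.64 CPM on Day 2 and from 15 to 435.1 CPM on Day 3 (log2 fold change 4.23 with a standard error of 0.72, adjusted p = 0.000470, edgeR). Only Day 3-E1, at 15 CPM, reached into the Day 2 range. CXADR, the coxsackievirus and adenovirus receptor of tight junctions, ranged from 14.96 to 27.3 CPM on Day 2 and from 31.7 to 445.4 CPM on Day 3 (log2 fold change 3.696 with a standard error of 0.65, adjusted p = 0.000575, edgeR). Day 3-E1 was the lowest Day 3 embryo and Day 3-E8 the highest for both genes, the same extremes as for PCDH8. In the fit of all embryos both genes passed the filter on low counts only through the Day 3 embryos, where they were high. Both also passed the test in the first barcode set (adjusted p = 0.0145 and 0.00893, edgeR), where only Day 3-E1 and Day 3-E2 stood for Day 3. The F11R call there rested on Day 3-E2, since Day 3-E1 lay in the Day 2 range. In contrast, the claudin CLDN10 fell from a median of 105.3 to 44.7 CPM (log2 fold change -1.08, adjusted p = 0.0121, edgeR). Its call was lost in the first barcode set (log2 fold change -0.79, adjusted p = 0.128, edgeR). Of the desmosome list 5 of 7 genes were in the table and none passed the filter on low counts.

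Of the polarity genes 1 of 10 tested rose and 4 fell (median log2 fold change -0.29). The small GTPase RHOA rose from a median of 999.5 to 1442 CPM (log2 fold change 1.00, adjusted p = 0.00538, edgeR), although with spike-in totals its log2 fold change was 0.06 and not called. PATJ, of the Crumbs complex, fell from a median of 158.9 to 48.4 CPM (log2 fold change -1.32, adjusted p = 0.00455, edgeR). PRKCI, the atypical protein kinase C of the Par complex, fell from a median of 45.5 to 14.26 CPM (log2 fold change -1.16, adjusted p = 0.0271, edgeR). At its Day 3 level PRKCI could not pass the filter on low counts without Day 2 embryos, where it was higher. The filter thus favoured a fall of PRKCI, and its adjusted p gives no independent support. All 3 calls were lost in the first barcode set, with log2 fold changes of 0.40, -0.53 and -0.97 (adjusted p = 0.232, 0.249 and 0.356, edgeR).

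Of the genes of beta-catenin turnover and Wnt-dependent transcription 4 of 18 rose and 2 fell (median log2 fold change 0.15). The corepressor TLE1 rose from a median of 23.5 to 51.6 CPM (log2 fold change 1.75, adjusted p = 0.0152, edgeR), and TNKS (tankyrase, which marks axin for degradation) rose from a median of 24.8 to 54.9 CPM (log2 fold change 1.64, adjusted p = 0.0129, edgeR). With spike-in totals both kept a positive value but not the call (0.63 and 0.73). DVL1 (dishevelled) fell from a median of 53.4 to 21.4 CPM (log2 fold change -0.83, adjusted p = 0.0281, edgeR). At its Day 3 level DVL1 could not pass the filter on low counts without Day 2 embryos, where it was higher. The filter thus favoured a fall of DVL1, and its adjusted p gives no independent support. BTRC, the ubiquitin ligase subunit that recognises beta-catenin, fell from a median of 244.0 to 128.9 CPM (log2 fold change -0.70, adjusted p = 0.0365, edgeR). None of these 4 was called in the first barcode set (adjusted p 0.220 to 0.976, edgeR), where their log2 fold changes were 0.05, 1.25, -0.64 and -0.26.

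Of the WAVE complex and other partners of protocadherins 1 of 10 rose and 2 fell (median log2 fold change -0.10). WASF2 (WAVE2) rose from a range of 291.6 to 348.4 CPM to a range of 374.3 to 572.0 CPM (log2 fold change 0.69, adjusted p = 0.00525, edgeR), but its sign turned with spike-in totals (-0.13, adjusted p = 0.679, edgeR) and it was not called with total UMI (adjusted p = 0.0578, edgeR). ABI2, another WAVE subunit, fell from a median of 90.8 to 49.0 CPM (log2 fold change -0.72, adjusted p = 0.0169, edgeR). The kinase MAPK14 (p38), which acts downstream of PCDH8 in neurons, fell from a median of 160.7 to 76.3 CPM (log2 fold change -0.65, adjusted p = 0.0104, edgeR). These 3 calls were lost in the first barcode set too (adjusted p 0.128 to 0.174, edgeR), with log2 fold changes of 0.45, -0.73 and -0.60 that kept their signs.

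Few relatives of the protocadherins and of E-cadherin were captured. Of 12 other classical and related cadherins 6 were in the table, and P-cadherin (CDH3) was the only one tested. It ranged from 182.7 to 260.7 CPM on Day 2 and from 28.3 to 264.5 CPM on Day 3, and its log2 fold change of -0.53 (standard error 0.29) did not pass the test (adjusted p = 0.161, edgeR). Of 27 other protocadherins and giant cadherins 13 were in the table, and the giant cadherin FAT1 was the only one tested. It ranged from 76.1 to 126.1 CPM on Day 2 and from 23.9 to 115.2 CPM on Day 3, and its value of -0.37 (log2 fold change, standard error 0.24) did not pass either (adjusted p = 0.240, edgeR).

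**Figure D5:**
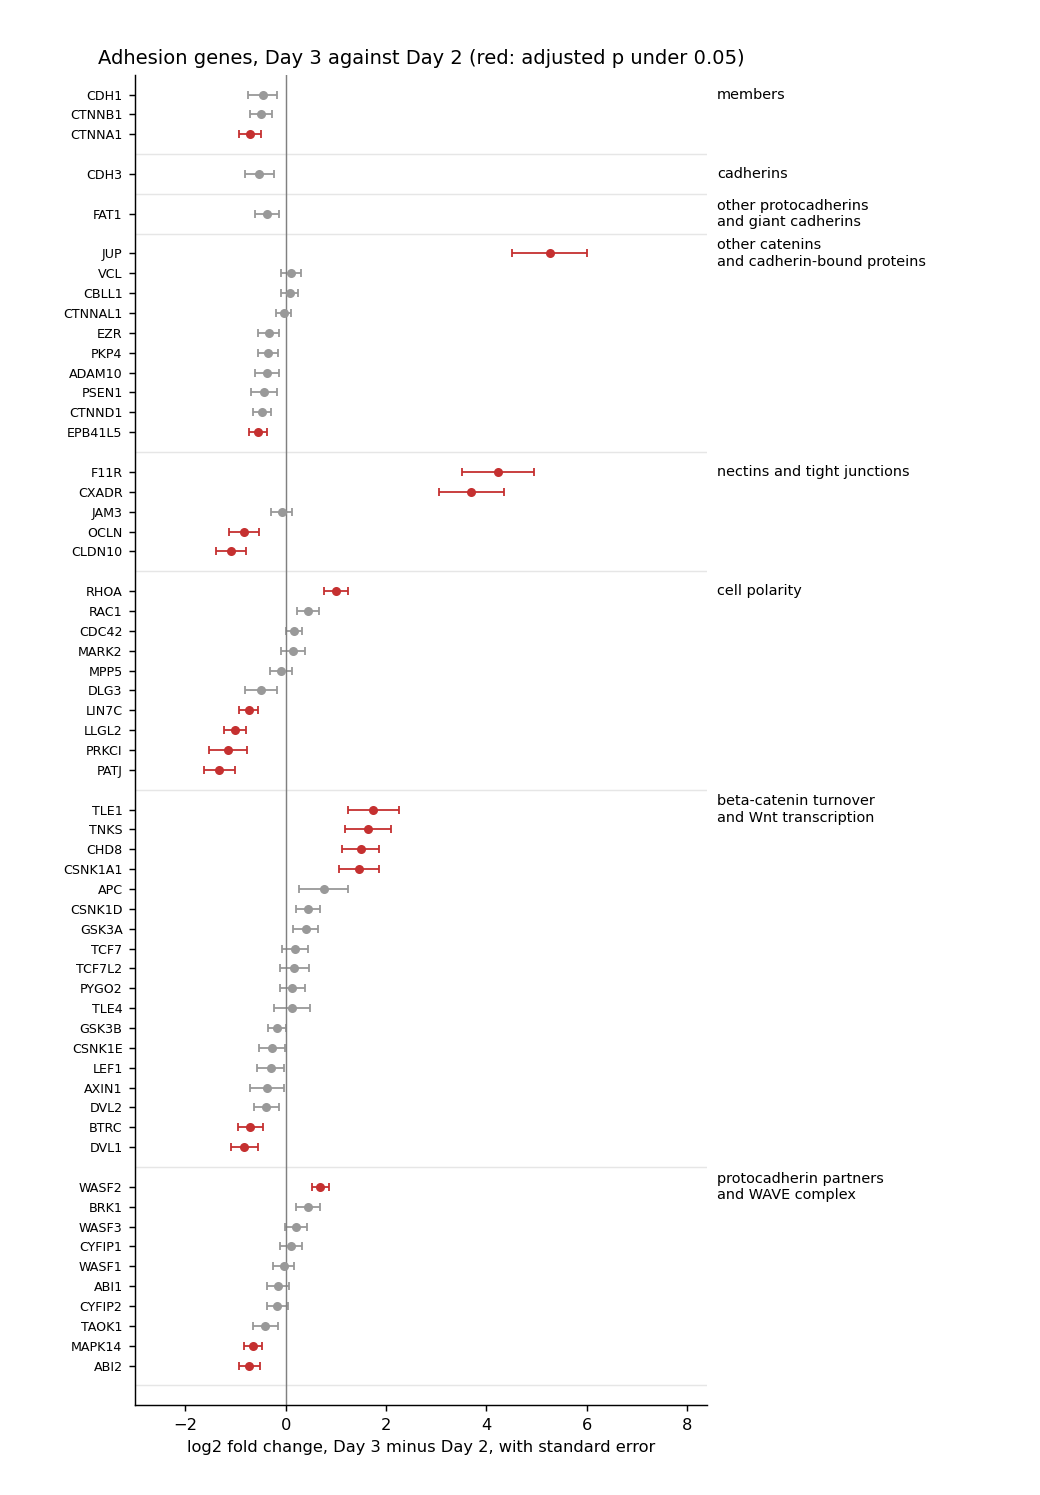
Log2 fold change (Day 3 minus Day 2, TMM-scaled) with standard error for CDH1, CTNNB1, CTNNA1 and the tested genes of the adhesion lists except 1, grouped by list; red marks an adjusted p under 0.05. JUP, F11R and CXADR stand out at 5.26, 4.23 and 3.696, while the genes that fell lie between -1.32 and -0.55. JUP, F11R and CXADR passed the filter on low counts only through the Day 3 embryos. PRKCI and DVL1 could not pass it without Day 2 embryos, where they were higher.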

How the data were processed

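Single blastomeres had been profiled by SCRB-seq, a 3′ method with cell barcodes and UMI. Read mapping by the authors used STAR (version 2.5.2b, from the submitters' processing notes) and genome build Bos tau7, and they deposited a table of UMI counts per gene and cell, raw and not normalised, with 92 spike-in RNAs. They also deposited a normalised table, treated here as a signal with no fixed scale, whose values served only as an alternative level. Its values did not follow from the counts by scaling of cells. Since 3′ counting has no length scaling, levels of different genes were not compared.

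Cells with 2000 or more UMI, spike-ins included, were kept (161 of 170). UMI were summed per embryo and tested between days with edgeR 4.0.16 (R 4.3.3; TMM scaling, filterByExpr by day, quasi-likelihood test, Benjamini-Hochberg adjustment, threshold 0.05), which was tested on simulated data. Embryos held 438899 to 920192 UMI on Day 2 and 294912 to 600185 on Day 3. PCR duplicates are removed by UMI, and intervals and floors (3 UMI) cover counting error only. Expected positive cells assume 1 level per embryo (Poisson), and shares at 10000 UMI are exact hypergeometric expectations. The spread is the variance of cell counts beyond Poisson, divided by the squared mean, compared by exact permutation of embryos (numpy 2.4.6, pandas 2.3.3). Labels give embryos as separate samples of a day.

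The 5 genes and all lists were chosen with earlier results of these data known. Named from each list were up to 2 called genes with the largest rise and up to 2 with the largest fall, or else the tested gene with the highest mean CPM, and for each of the 5 genes the 3 tested genes of highest rho (2 genes that this rule names are not reported here). Other cumulus or oocyte markers were only summed. Alternatives covered scaling, DESeq2 1.42.0, filters, depth, barcode set, plate, replicate block and leaving out embryos. Coordinates and sequences were not used here.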

Additional observations from a re-analysis of the deposited data

Results flagged for a closer look

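In 16 groups of embryo values of CDH1, CTNNB1 and CTNNA1 (level, share of cells with a UMI and spread, per gene and day) the highest or lowest embryo was compared with its neighbour by Dixon's criterion, and 2 embryos stood apart. Chance alone marks about 1 in 20 such groups. Day 3-E7 stood apart in the CTNNB1 level, with 158.4 CPM against 98.3 CPM in the next highest of 8 Day 3 embryos, and CTNNB1 passed the test between the days without it. Day 2-E5 stood apart in the share of cells with CTNNB1, with 87.5% (7 of 8 cells) against 100% in the other 5 Day 2 embryos, a difference of 1 cell. That cell had 4996 UMI, and 0.78 CTNNB1 UMI were expected in it. With the other 5 embryos tied at 100%, any lower value would be marked, so the rate of 1 in 20 does not apply here.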

How the results depend on the processing

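The number of genes called between the days (1712) stayed within 1.5 times under total-UMI scaling, DESeq2 (2217), no filter, cells with 10000 or more UMI, plates 2 and 3, spike-in scaling (2548, chosen after seeing the data) and each left-out embryo (1327 to 2163). It was 729 after thinning every cell to 10000 UMI, 351 in the first barcode set and 702 with a replicate block. Embryos of the same number did not deviate together (correlations from -0.132 to 0.0229), so the numbers do not pair them. In that block the log2 fold change was -0.63 for CDH1, -0.59 for CTNNB1 and -0.61 for CTNNA1 (no longer called).

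All log2 fold changes of CDH1, CTNNB1 and CTNNA1 stayed negative. The CTNNA1 call was also lost after thinning (-0.37) and in the first barcode set (-0.34), and held without each embryo (-0.79 to -0.61). CTNNB1 passed the test with total UMI (-0.74), after thinning (-0.90), with spike-ins (-1.29) and without Day 3-E7, in a range of -0.68 to -0.44 over left-out embryos. CDH1 passed only with spike-ins (-1.18), ranged from -0.63 to -0.35 over left-out embryos, and did not pass the filter after thinning. The causes were not tested.

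The Day 3 minus Day 2 difference in spread of CTNNB1 was 0.173. It passed the test as the plain squared CV of cell CPM (0.57), which includes counting error, and turned to -0.0275 with embryos of 50 or more UMI, which left Day 3-E1 alone on Day 3. That of CTNNA1 (-0.0180) turned to 0.0176 in cells with 10000 or more UMI and ranged from -0.0580 to 0.00134 over left-out embryos, with the positive value without Day 2-E6. At 50 or more UMI CDH1 gave no value. The mean PCDH8 level on Day 2 was 6.2 CPM and 17.2 CPM as a mean over cells, and its share of 44.3% was 5.45% at 10000 UMI and 7.24% for 2 or more UMI. Without each embryo in turn, the mean Day 3 level was 142.7 to 232.8 CPM for PCDH8 and 12.9 to 19.9 CPM for PCDH10. Depth limits the low counts: at 1 to 5 UMI per embryo, Day 2 PCDH8 and most PCDH10 values are at or near the level of 3 UMI.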

Other observations

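Several adhesion genes of the lists were too low for the filter but held most of their molecules on 1 of the days. They were picked after their values were seen, and none was tested in the filtered fit of all embryos with TMM scaling. ARVCF, a catenin of the p120 family, had 7 UMI in 3 of 6 Day 2 embryos and 57 UMI in 7 of 8 Day 3 embryos. The junctional adhesion molecule JAM2 had 6 UMI on Day 2 and 59 on Day 3, where Day 3-E1 was at 0 and Day 3-E8 highest at 43.8 CPM. The claudin CLDN6 had 6 and 44 UMI, the protocadherin PCDH17 10 and 36 UMI, and the desmosomal cadherin DSC3 1 and 25 UMI. In the other direction, the desmosomal plaque gene DSP had 96 UMI on Day 2 (15.9 to 28.9 CPM) and 35 UMI on Day 3 (5.20 to 15 CPM). DSP passed the filter in 2 alternatives. Its log2 fold change was -1.61 with spike-in totals, where the median gene stood at -0.78, and -0.69 in the first barcode set, where it was not called. Both values are a description, since DSP was picked by its values. The protocadherin PCDHGC3 had 34 and 15 UMI.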
